A study of Homo sapiens with 8 samples.

Results

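Translation factors are the proteins that bring messenger RNA, ribosomal subunits and transfer RNA together (initiation factors, eIF), move the ribosome along the message (elongation factors, eEF) and release the finished chain (termination factors). Their genes were taken from the deposited count table by symbol: every symbol beginning EIF1 to EIF6, apart from the Argonaute genes named EIF2C, the eIF2 kinases named EIF2AK and the splicing-associated helicase EIF4A3, together with EEF1A1, EEF1A2, EEF1B2, EEF1D, EEF1G, EEF2, ETF1 and GSPT1. This gave 59 genes of 23368 symbols. Of these, 53 had enough reads to be tested, among 15254 tested genes in all. The other 6 were EIF1AY, EIF3C, EIF3CL, EIF4A1, EIF4E1B and EIF4EBP3.

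The libraries came from HEK293F, a suspension-adapted line derived from human embryonic kidney cells, grown in medium with serum. The study changed the amount of MOV10, an RNA helicase that binds messenger RNA and associates with Argonaute proteins. Knockdown cells received siRNA against MOV10 and control cells an irrelevant siRNA, each 3 times with 24 h between treatments, whereas overexpressing cells were transfected 1 time with a plasmid for myc-tagged MOV10. There were 2 knockdown, 3 overexpression and 3 control libraries of total RNA, each made from 1 ug with a stranded kit. The overexpressing cells differed from the control in the number of transfections and the nucleic acid delivered as well as in MOV10, and the effects of these cannot be told apart here, since no library of an empty plasmid was used. Knockdown cells differed from the control in the siRNA itself as well as in MOV10. Effects of that siRNA on other genes cannot be told apart from those of less MOV10. Whether replicate libraries stem from different cultures is not stated in the labels, and every p-value below therefore reflects library-to-library spread that may be only technical.

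Initiation starts when eIF2, bound to GTP and initiator transfer RNA, joins the small ribosomal subunit together with eIF1, eIF1A, eIF3 and eIF5. The cap-binding complex eIF4F (eIF4E, the helicase eIF4A and the scaffold eIF4G) recruits this assembly to the message, and eIF5B then joins the large subunit. Phosphorylation of the eIF2 alpha subunit turns eIF2 into an inhibitor of its own exchange factor, eIF2B, and lowers initiation in general. Elongation uses eEF1A to deliver aminoacyl transfer RNA, eEF2 to translocate and eIF5A to help the ribosome through difficult stretches. Many of these messenger RNAs begin with a run of pyrimidines directly at the cap, the 5′ terminal oligopyrimidine tract, through which mTOR signalling controls their translation.

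Library totals lay between 12737889 and 32826936 reads, a 2.58-fold range, and 1.77 to 1.94% of the reads fell on the 59 factor genes. MOV10 itself stood at 76.8, 76.4 and 91.2 CPM (the counts-per-million level, with library sizes scaled by the TMM method) in the control libraries, 50.6 and 55.5 in the knockdown and 2971, 2916 and 2454 in the overexpression libraries. These levels match the labels: the log2 fold change against control was -0.62 ± 0.08 (SE, adjusted p = 8.84e-06) in knockdown and 5.10 ± 0.08 (adjusted p = 2.10e-21) in overexpression. The line's markers VIM (746 to 1100 CPM), LIN28B (242 to 299) and KRT8 (116 to 142) were present, KRT18, NEFM and PAX2 were at 7.44 CPM or more in every library, and the blood, endothelial and heart markers PTPRC, CD3E, PECAM1 and MYH7 were at 0.38 CPM or less and the liver marker ALB at 0.856 or less.

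In the control cells the factors spanned a wide range of abundance. Because longer transcripts collect more reads, genes were ordered by CPM per kilobase of their longest annotated transcript. EEF2, the translocase, was the most abundant at 1158 ± 6.68 CPM per kb (SD, n = 3), followed by EIF5A at 408 ± 24.6, EEF1A1 at 292 ± 2.67 and the eIF3 subunit EIF3I at 241 ± 6.05. EIF1 (232.5 ± 2.90), EIF4G2 (221 ± 2.27), EIF4G1 (216 ± 2.03) and EIF2S3 (193 ± 4.04) came next. Each of these 8 genes stood clear of the next in the order, with no overlap between the 3 control libraries of neighbours. At the low end of the tested genes were EIF3F (9.30 ± 0.49), EIF4E3 (4.55 ± 0.135), the cap-binding protein EIF4E (3.91 ± 0.178) and EIF5A2 (3.28 ± 0.18). The long transcript models of some of these genes (11523 nt for EIF4E, 7540 nt for EIF3F) lower their value if cells use a shorter form, and for some genes the longest model is not a coding one (5327 nt for EIF4A2, whose longest coding transcript has 1919 nt). EEF1A1 was divided by a model of 4441 nt and EIF5A by one of 1511 nt. In plain CPM their control means were 1297 and 616.6, so their order rests on these lengths. EEF1A1 also has many processed copies in the genome, and its level is uncertain where reads could not be placed. How far EEF2 stands above EEF1A1 in these cells is therefore uncertain too. The order is a description of the reads as counted.

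**Figure D1:**
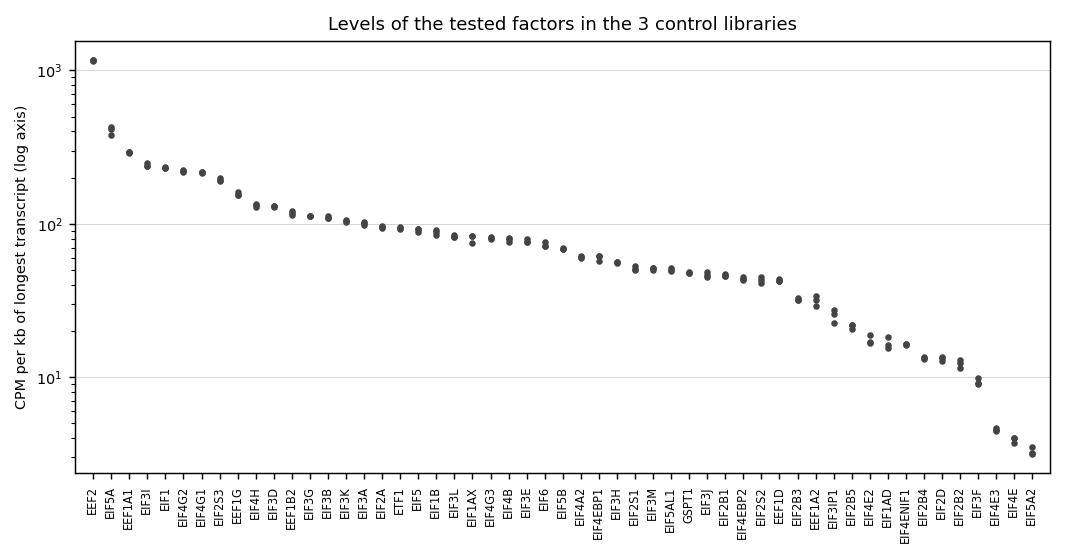
Level of each tested factor in the 3 control libraries, in CPM per kilobase of the longest annotated transcript on a log axis, one point per library, ordered by mean. By the reads as counted, EEF2 at a mean of 1158 stands above all others, and EIF4E3, EIF4E and EIF5A2 lie at the low end, between 3.28 and 4.55. The level of EEF1A1 is uncertain where its reads could not be placed.

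The genes that were not tested include 2 that encode core parts of the machinery. EIF4A1, the major eIF4A helicase gene, and EIF3CL were listed at 0 in all 8 libraries, and EIF3C, a core eIF3 subunit, had 1 read in 1 knockdown library. EIF3C and EIF3CL are 99.9% identical over 3085 nt, and in the GENCODE annotation used here 48.6% of the exonic bases of EIF4A1 are shared with other genes on the same strand, including the read-through gene SENP3-EIF4A1. EIF4EBP3 shares 73.4% with ANKHD1-EIF4EBP3. How the authors assigned reads that fit more than 1 place or gene is not given in the sources used here, and these zeros were read as no measurement.

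The start of the gene was examined because of the terminal pyrimidine tract. RefSeq start windows (build GRCh38.p14, matched by symbol) were found for 48 of the 59 factors. A tract was scored when a RefSeq start was a C followed by at least 4 more C or T on the transcribed strand. Of the 48, 12 had such a start, which is 25%, against 5.14% of 27305 symbols with a window and 7.23% of 10399 tested genes with one. The 12 windows are printed because they are the factors whose sequence carries this feature. Each shows 20 bases before the start and 10 from it, 5′ to 3′ on the gene's own strand, with the pyrimidine run in capitals from the start base on.
EEF1A1, chr6:73521023-73521052, minus strand: cagtagtcgccgtgaacgttCTTTTTCgca
EEF1B2, chr2:206159875-206159904, plus strand: attttccggtctcttcgggtCCTTTTTCCT
EEF2, chr19:3985454-3985483, minus strand: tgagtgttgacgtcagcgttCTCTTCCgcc
EIF2A, chr3:150546767-150546796, plus strand: aactctcacccgagcggtttCTCTTTCCgg
EIF2D, chr1:206612456-206612485, minus strand: gccctggtttccagccgggcCCTTTTCgcg
EIF2S3, chrX:24054936-24054965, plus strand: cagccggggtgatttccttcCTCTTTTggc
EIF3D, chr22:36529157-36529186, minus strand: ccgctgcgcgcgcatgtttcCTCTTTTCCT
EIF3F, chr11:7987317-7987346, plus strand: gtcatttccgcttccgcctcCTTCTTTCTC
EIF3K, chr19:38619168-38619197, plus strand: gtcgtttccgtttccaccacCTCTTCCTgt
EIF3M, chr11:32583811-32583840, plus strand: gcgtcgcgcggcccagttccCTTTTCCggt
EIF4A2, chr3:186783557-186783586, plus strand: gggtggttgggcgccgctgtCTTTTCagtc
EIF4B, chr12:53006436-53006465, plus strand: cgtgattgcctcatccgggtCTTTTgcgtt
The run of EEF1B2 goes on past the window, to 16 bases in all, and those of the other 11 are 5 to 10 bases long. For contrast, the same window is shown for 4 genes without the tract on which the comparisons below turn.
EIF2S1, chr14:67360308-67360337, plus strand: cgcatgcgaggaggttccgcatgcgcggtg
EIF3B, chr7:2354807-2354836, plus strand: ggcctccccgtcgcacgcacatggctgggc
EIF2B2, chr14:75002901-75002930, plus strand: aagccgacctcgcccgccccggaagtgcaa
EIF1B, chr3:40309687-40309716, plus strand: ctccatcggccattttgtgcgagaagccgc
A RefSeq start is an annotated position and not one measured in these cells, so the absence of the tract says only that these letters are not at the annotated start.

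With MOV10 overexpressed, more of the factor mRNAs were lower than higher. Of the 53 tested, 8 rose, 25 fell and 20 were not called at an adjusted p under 0.05 (edgeR quasi-likelihood test over all tested genes). Among the 25 are EIF5AL1 and the pseudogene EIF3IP1, which may share reads with EIF5A and EIF3I and may not be separate measurements. The share of called factors was 62.3%, against 49.2% of all tested genes. This excess depended on the processing. With at least 50 reads in every library 31 factors were called, against 53.7% of all genes tested. With plain library totals 27 were called, against 49.3%. Lower calls made up 47.2% of the factors against 24.1% of all tested genes, and higher calls 15.1% against 25.2%. The changes were small, with a median log2 fold change of -0.10 (all tested genes: 0.01) and a range from -0.45 for EIF5A to 0.79 for EEF1A2. Among called genes the median size was 0.23 for the factors and 0.33 for all. In 27 factors all 3 overexpression libraries lay below all 3 control libraries, and in 9 above, where the background was 27.5% below and 28.5% above (56% in either direction). The split depends on the scaling: with plain library totals instead of TMM, which puts the median of all genes at 0.06, 11 factors were higher and 16 lower, and their median was -0.06. The scaling factors themselves moved with the groups, from 1.02 to 1.03 in overexpression, 0.995 to 1 in control and 0.961 to 0.972 in knockdown libraries. Without control replicate 1, 15 factors were lower, and 2964 of all 15171 tested genes.

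With MOV10 knocked down, fewer factor mRNAs were called, as of all tested genes. There were 12 that rose, 7 that fell and 34 that were not called, so 35.8% of the factors were called against a background of 39% (19.9% higher and 19.1% lower). The median log2 fold change was 0.03 and turned to -0.01 with library totals, where 8 factors were higher and 9 lower. Both knockdown libraries lay above all control libraries in 21 factors and below in 11, against 32.5% above and 31.1% below among all tested genes (63.7% in either direction). The log2 fold changes ran from -0.92 for EIF2S1 to 0.36 for EIF2B2, so the lowest value lay below that of overexpression (-0.45) and the highest also below (0.79). The count rested on few libraries. Without knockdown replicate 2, the deepest, fewer factors were called, as of all tested genes, and the median log2 fold change of the factors was 0.01. Without control replicate 2, 12 factors were called, against 30.8% of all tested genes. Without control replicate 3 there were 13 (7 higher), against 31.7%. Overexpression replicate 3, the shallowest library, enters here through the shared estimate of the spread. Without it 24 were called, against 47.2% of all tested genes. A fit of only the knockdown and control libraries called 27 factors (17 higher, 10 lower), against 49.5% of all genes tested. Without knockdown replicate 2 the remaining knockdown library was assumed to vary like the libraries of the other groups.

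A direct comparison of overexpression with knockdown, which uses no control library, called 38 of the 53 factors, 11 higher and 27 lower in overexpression. That is 71.7% against a background of 57.4% (29.3% higher, 28.1% lower). The 27 lower also include EIF5AL1 and EIF3IP1. The median log2 difference was -0.14. All overexpression libraries lay above both knockdown libraries in 13 factors and below in 32, with a background of 35.4% above and 33.7% below (69.1% in either direction). With library totals, 14 factors were higher and 17 lower, with a median of -0.05. In bulk RNA, fewer cells of a kind and less RNA per cell cannot be told apart, here or in any comparison that follows.

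**Figure D2:**
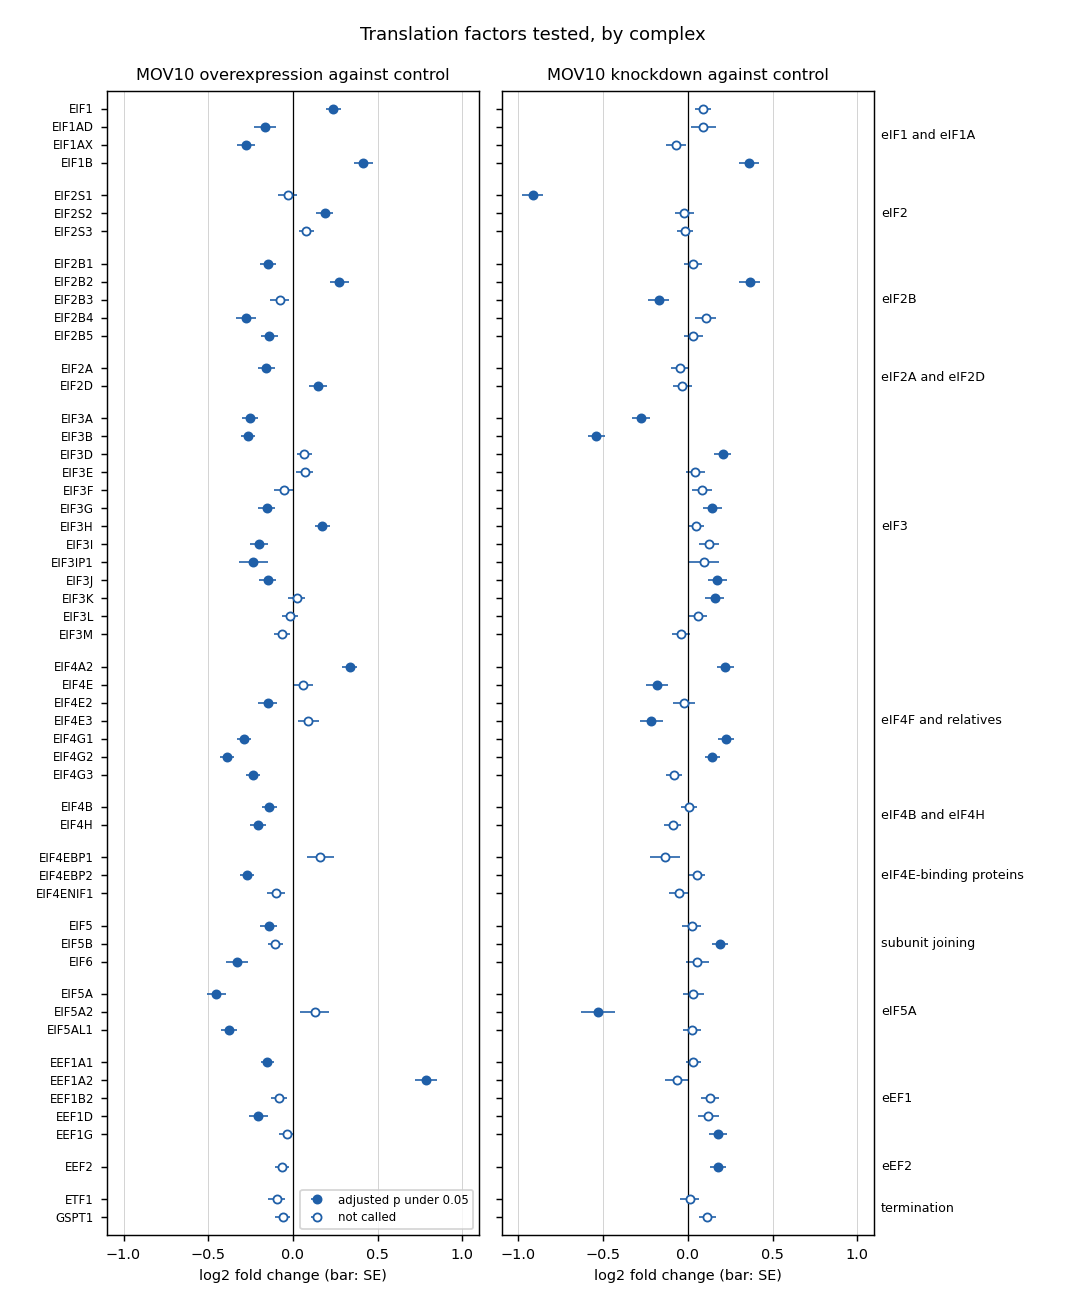
Log2 fold change of each tested factor, grouped by complex, for MOV10 overexpression against control (left) and MOV10 knockdown against control (right), with bars of 1 SE; filled points have an adjusted p under 0.05. Most filled points on the left lie below 0, and on the right EIF2S1 at -0.92, EIF3B at -0.54 and EIF5A2 at -0.53 lie farthest from 0.

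eIF1 and eIF1A keep the small subunit open while it scans for the start codon. EIF1, which enforces start codon choice, was at 537, 539 and 549.5 CPM in the control libraries, 618, 625 and 676 in overexpression and 578.5 and 574 in knockdown. All 5 libraries of the treated cells lay above the controls, and the difference passed the test in overexpression (log2 fold change 0.24 ± 0.04, adjusted p = 0.000132) but not in knockdown (0.09 ± 0.05, adjusted p = 0.151, and 0.0392 without overexpression replicate 3). EIF1B, a close relative of EIF1 (82.2% identical over 349 nt), was at 89.3, 91.8 and 85.3 CPM in control, 113, 115 and 129 in overexpression and 116 and 112 in knockdown libraries. It rose in both comparisons, by 0.41 ± 0.06 (adjusted p = 4.49e-06) and 0.36 ± 0.06 (adjusted p = 9.92e-05) on the log2 scale. The treated libraries did not overlap the control ones, and overexpression and knockdown differed by 0.05 ± 0.06 (adjusted p = 0.463). EIF1AX, which encodes eIF1A, went the other way in overexpression and fell by 0.28 ± 0.05 on the log2 scale (adjusted p = 0.000267), to 275 to 319 CPM from 333.5 to 370 in control. EIF1AD, an eIF1A-domain protein, had a log2 fold change of -0.16 ± 0.07 in overexpression (adjusted p = 0.0479), which was lost without control replicate 1 (adjusted p = 0.384), without control replicate 2 (0.057), without overexpression replicate 1 (0.112) or 2 (0.102), and without knockdown replicate 3 (0.0546).

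eIF2 carries the initiator transfer RNA, and its 3 subunits did not move together. EIF2S1, the alpha subunit that stress kinases phosphorylate, was at 240, 226 and 226 CPM in the control libraries, 220, 210.1 and 248 in overexpression and 119 and 126 in knockdown. Both knockdown libraries lay far below the other 6, which overlapped each other. The fall in knockdown was 47% (log2 fold change -0.92 ± 0.06, adjusted p = 1.68e-09) and was the largest change of any tested factor in either comparison with control. In overexpression the log2 difference was -0.03 ± 0.06 (adjusted p = 0.678; -0.10 with adjusted p = 0.0499 without overexpression replicate 3), and overexpression exceeded knockdown by 0.89 ± 0.06 (adjusted p = 1.51e-09). The beta subunit EIF2S2 rose in overexpression, from 110 to 119 CPM in control to 128 to 134.5, a log2 fold change of 0.19 ± 0.05 (adjusted p = 0.00356), and was at 113.5 and 112 CPM in knockdown (-0.02 ± 0.06, adjusted p = 0.804). The gamma subunit EIF2S3, which binds GTP and the transfer RNA, was at 549, 565 and 543 CPM in control, 584, 564 and 605 in overexpression and 548 and 544 in knockdown. Its treated libraries overlapped the control ones, while all overexpression libraries lay above both knockdown libraries. The log2 differences from control were 0.08 ± 0.04 (adjusted p = 0.123, and 0.0389 without overexpression replicate 2 or 0.0198 with library totals) and -0.02 ± 0.05 (adjusted p = 0.798).

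eIF2B, the 5-subunit exchange factor that reloads eIF2 with GTP, also changed unevenly. EIF2B2, the beta subunit, was at 55.5, 53.0 and 49.8 CPM in control, 64.0, 65.4 and 62.1 in overexpression and 69.9 and 66.1 in knockdown libraries. It rose in both, by 0.27 ± 0.06 (adjusted p = 0.000474) and 0.36 ± 0.06 (adjusted p = 9.21e-05) on the log2 scale, with no treated library as low as a control one. EIF2B1, the alpha subunit and the most abundant of the complex per length (46.2 ± 0.519 CPM per kb), was at 116, 114 and 113.5 CPM in control, 105, 102.5 and 103 in overexpression and 117 and 116.5 in knockdown. Its fall in overexpression was 0.15 ± 0.05 on the log2 scale (log2 fold change -0.15, adjusted p = 0.014), with an adjusted p of 0.0749 without control replicate 1 and of 0.0613 with library totals. EIF2B4, the delta subunit, fell in overexpression (log2 fold change -0.28 ± 0.06, adjusted p = 0.000503) and stood at 0.11 ± 0.06 in knockdown (adjusted p = 0.184), and the direct comparison gave -0.39 ± 0.06 (adjusted p = 2.84e-05). Calls for the remaining subunits were fragile. EIF2B5 in overexpression (-0.14 ± 0.05, adjusted p = 0.0297) was lost without overexpression replicate 1 (0.0649), control replicate 1 (0.12) or control replicate 3 (0.0951). EIF2B3 in knockdown (-0.17 ± 0.06, adjusted p = 0.0271) was lost without any 1 of the 5 knockdown and control libraries (adjusted p 0.0662 to 0.131).

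EIF2A and EIF2D encode factors that can deliver initiator transfer RNA without eIF2. EIF2A was at 209, 211 and 206 CPM in control, 185, 179 and 199 in overexpression and 207 and 198 in knockdown. All overexpression libraries were below the control ones (log2 fold change -0.16 ± 0.05, adjusted p = 0.0113), but the adjusted p was 0.0537 without overexpression replicate 2 and 0.0528 or 0.0505 without control replicate 1 or 2. EIF2D was higher in overexpression by 0.15 ± 0.05 (adjusted p = 0.0244), which was lost without overexpression replicate 1 (0.0619) or 2 (0.0746) and without control replicate 1 (0.0558) or 2 (0.119). In knockdown the differences were -0.05 for EIF2A and -0.03 for EIF2D, neither called.

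eIF3 is the largest initiation factor, a scaffold on the small subunit. Of its 13 tested genes, 1 rose and 6 fell in overexpression, and 4 rose and 2 fell in knockdown. The shares called in either direction, 53.8% and 46.2%, were close to the 49.2% and 39% of all tested genes. By direction, 46.2% were lower and 7.69% higher in overexpression, against 24.1% and 25.2% of all tested genes. In knockdown 15.4% were lower and 30.8% higher, against 19.1% and 19.9%. The 13 include the pseudogene EIF3IP1, which is 1 of the 6 that fell. EIF3A and EIF3B, which form the core to which the other subunits attach, were lower in both treatments. EIF3B was at 406, 420 and 406 CPM in control, 346, 343 and 336 in overexpression and 288 and 276 in knockdown libraries. The 3 groups did not overlap, and the log2 fold change was -0.26 ± 0.04 in overexpression (adjusted p = 3.45e-05) and -0.54 ± 0.05 in knockdown (adjusted p = 4.45e-08), with a direct difference of 0.28 ± 0.05 (adjusted p = 5.86e-05). EIF3A was at 679.9, 674 and 652 CPM in control, 567, 522 and 592 in overexpression and 551 and 553 in knockdown. It fell in both, with log2 fold changes of -0.26 ± 0.05 (adjusted p = 0.00013) and -0.28 ± 0.05 (adjusted p = 0.000291). The direct difference of EIF3A was 0.02 ± 0.05 (adjusted p = 0.742).

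Other eIF3 subunits moved against EIF3A and EIF3B in knockdown. EIF3D, the subunit that can bind the cap of selected messages, was at 279, 278 and 280 CPM in control, 299, 295 and 281 in overexpression and 328 and 315 in knockdown. Its rise in knockdown was 0.21 ± 0.05 (adjusted p = 0.00217), with an adjusted p of 0.0635 without knockdown replicate 2, and the overexpression value was 0.07 ± 0.04 (adjusted p = 0.221, and 0.0462 without overexpression replicate 3). EIF3I, the most abundant subunit per length, was at 362, 347 and 346 CPM in control, 313.5, 323 and 281 in overexpression and 400 and 367 in knockdown. It fell in overexpression (-0.20 ± 0.05, adjusted p = 0.00318), was not called in knockdown (0.12 ± 0.06, adjusted p = 0.0937, and 0.011 without overexpression replicate 3) and differed between the treatments by -0.32 ± 0.06 (adjusted p = 7.02e-05). EIF3G and EIF3J had the same pattern in the direct comparison, at -0.30 ± 0.06 (adjusted p = 0.000113) and -0.32 ± 0.06 (adjusted p = 5.93e-05). Against control their calls were less firm. EIF3G in overexpression (-0.16, adjusted p = 0.0144) gave 0.0507 without control replicate 1, and in knockdown (0.14, adjusted p = 0.0449) it was lost without any 1 of the knockdown and control libraries or overexpression replicate 1 (0.0659 to 0.33). EIF3J in overexpression (-0.15, adjusted p = 0.021) was lost without overexpression replicate 2 (0.103) or control replicate 1 (0.147), and in knockdown (0.17, adjusted p = 0.0182) without knockdown replicate 2 (0.186) or control replicate 2 (0.0921) or 3 (0.0633).

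EIF3H rose in overexpression, from 220 to 223 CPM in control to 245.5 to 254 (log2 fold change 0.17 ± 0.04, adjusted p = 0.00231), and was at 230 and 229 in knockdown (0.05, adjusted p = 0.436). EIF3K in knockdown (0.16 ± 0.05, adjusted p = 0.0245) was lost without either knockdown library (0.163 and 0.083) and without control replicate 2 (0.089) or 3 (0.0763). EIF3E, EIF3F, EIF3L and EIF3M were not called against control in either treatment, with log2 differences from -0.06 to 0.08, although EIF3M had an adjusted p of 0.0379 in overexpression without overexpression replicate 3. The pseudogene EIF3IP1 is 87.9% identical to EIF3I over 966 nt, so reads of one may have been counted for the other, and its overexpression call (-0.23 ± 0.08, adjusted p = 0.025) was lost without overexpression replicate 3 (0.06) or control replicate 1 (0.09) or 3 (0.118).

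**Figure D3:**
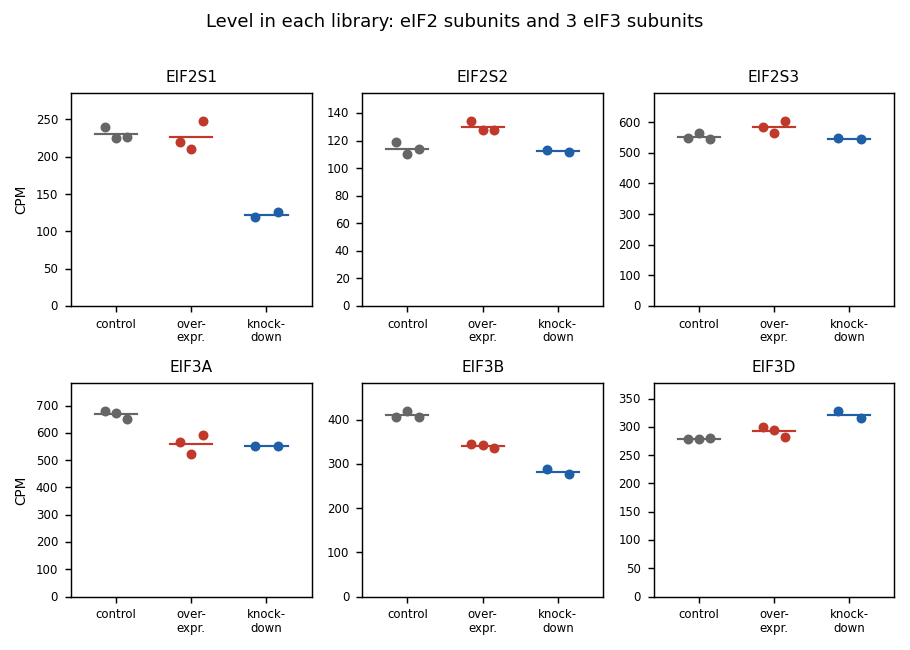
CPM in each library (points) and group mean (lines) for the 3 eIF2 subunits and for EIF3A, EIF3B and EIF3D; grey is control (n = 3), red overexpression (n = 3), blue knockdown (n = 2), and each axis starts at 0. EIF2S1 in knockdown, at 119 and 126, lies far below all other libraries, whereas EIF2S2 and EIF2S3 do not; EIF3B steps down from control through overexpression to knockdown.

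The eIF4F complex binds the cap and unwinds the leader. The 3 scaffold genes, EIF4G1, EIF4G2 (also called DAP5, which lacks the eIF4E-binding part) and EIF4G3, all fell in overexpression. EIF4G2 was at 1513, 1492 and 1483 CPM in control, 1149, 1117 and 1160 in overexpression and 1717 and 1593 in knockdown libraries. EIF4G1 was at 1237, 1214 and 1225 in control, 1021, 1009 and 976 in overexpression and 1483 and 1382 in knockdown. For both genes the 3 groups did not overlap, with overexpression lowest and knockdown highest. The log2 fold changes in overexpression were -0.39 ± 0.04 for EIF4G2 (adjusted p = 2.06e-07) and -0.29 ± 0.04 for EIF4G1 (adjusted p = 7.74e-06).

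In knockdown EIF4G1 rose by 0.23 ± 0.05 (adjusted p = 0.000546). EIF4G2 had 0.15 ± 0.05 (adjusted p = 0.0141), lost without knockdown replicate 2 (0.294), control replicate 2 (0.0564) or control replicate 3 (0.0664) and at 0.0712 with library totals. The direct comparison of overexpression with knockdown gave -0.54 ± 0.04 for EIF4G2 (adjusted p = 7.67e-09) and -0.52 ± 0.05 for EIF4G1 (adjusted p = 1.32e-08). EIF4G3 fell in overexpression (-0.24 ± 0.04, adjusted p = 8.51e-05) and in knockdown was at 472.1 and 471.9 CPM, below the control range of 491 to 507 without a call (-0.08 ± 0.05, adjusted p = 0.165).

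EIF4A2, the second eIF4A helicase, was at 316, 329 and 324 CPM in control, 407, 396 and 421 in overexpression and 390.2 and 363 in knockdown. All treated libraries lay above the controls, with log2 fold changes of 0.34 ± 0.05 in overexpression (adjusted p = 4.45e-06) and 0.22 ± 0.05 in knockdown (adjusted p = 0.00151, and 0.0775 without knockdown replicate 2). EIF4A2 is 77.3% identical to EIF4A1 over 1234 nt, and since EIF4A1 gave no reads, the sum of both helicase genes was not measured. Small nucleolar RNA genes lie on the same strand within EIF4A2 and take 10.5% of its exonic bases.

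The cap-binding proteins differed by at most 0.22 from control on the log2 scale. EIF4E was at 46.2, 46.3 and 42.7 CPM in control and 39.9 and 39.7 in knockdown (log2 fold change -0.18 ± 0.07, adjusted p = 0.032), a call lost without either knockdown library (0.15 and 0.122) and without control replicate 1 or 2 (0.114 each). EIF4E3, a relative of EIF4E, was at 44.9, 46.7 and 44.1 CPM in control, 46.7, 46.5 and 52.2 in overexpression and 38.6 and 39.3 in knockdown. Both knockdown libraries were the lowest (-0.22 ± 0.07, adjusted p = 0.015), with the call lost without knockdown replicate 2 (0.126) or 3 (0.0609) or control replicate 2 (0.0696). In the direct comparison both genes were higher in overexpression, EIF4E by 0.24 ± 0.07 (adjusted p = 0.00359) and EIF4E3 by 0.31 ± 0.07 (adjusted p = 0.000601). EIF4E2, which competes for caps as a repressor, had -0.15 ± 0.06 in overexpression (adjusted p = 0.0397), lost without overexpression replicate 1 (0.107), control replicate 1 (0.287) or 2 (0.0572), or knockdown replicate 3 (0.0508).

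The eIF4A cofactors EIF4H and EIF4B were both lower in overexpression. EIF4H was at 355.5, 346 and 358.5 CPM in control, 295.5, 306 and 319 in overexpression and 339 and 325 in knockdown, with a log2 fold change of -0.21 ± 0.04 in overexpression (adjusted p = 0.000734) and -0.09 ± 0.05 in knockdown (adjusted p = 0.16). EIF4B had -0.14 ± 0.04 in overexpression (adjusted p = 0.0103), with an adjusted p of 0.07 without control replicate 1 and 0.0552 without control replicate 2.

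The 4E-BPs sequester eIF4E when mTOR activity is low. EIF4EBP1, the most abundant of them per length, was at 62.6, 58.5 and 62.6 CPM in control, 67.3, 78.6 and 58.1 in overexpression and 52.0 and 60.1 in knockdown. Its groups overlapped, and neither comparison with control was called (0.16 ± 0.08, adjusted p = 0.0973, and -0.13 ± 0.09, adjusted p = 0.246). Without overexpression replicate 3, the lowest of its group, the overexpression value was 0.25 with an adjusted p of 0.000712. EIF4EBP2 fell in overexpression, to 258.7 to 268 CPM from 313 to 326 (-0.27 ± 0.04, adjusted p = 3.09e-05), and was at 335 and 326 in knockdown (0.05 ± 0.05, adjusted p = 0.398). EIF4ENIF1, the eIF4E transporter, was not called in either.

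After start codon selection, EIF5 stimulates GTP hydrolysis by eIF2, EIF5B joins the large subunit, and EIF6 keeps the large subunit from joining too early. EIF6 was at 98.5, 92.4 and 92.7 CPM in control, 77.5, 80.2 and 66.9 in overexpression and 103 and 93.9 in knockdown libraries. It fell in overexpression (-0.33 ± 0.06, adjusted p = 0.00019), where all libraries lay below the other 5, and its knockdown value was 0.06 ± 0.07 (adjusted p = 0.534). EIF5 was at 549, 551.5 and 525 CPM in control, 484, 464 and 525 in overexpression and 572 and 529 in knockdown. Its highest overexpression library reached the lowest control one within 1 CPM, and the call (-0.14 ± 0.05, adjusted p = 0.0195) was lost without overexpression replicate 1 (0.0648) or 2 (0.0967) or control replicate 1 (0.0964) or 2 (0.0802). EIF5B rose in knockdown (0.19 ± 0.05, adjusted p = 0.00352, and 0.0842 without knockdown replicate 2), had -0.10 ± 0.04 in overexpression (adjusted p = 0.0514, and 0.0101 without overexpression replicate 3), and differed between the treatments by -0.30 ± 0.05 (adjusted p = 2.70e-05).

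eIF5A carries the modified residue hypusine and aids both elongation and termination. EIF5A was at 649.9, 576.5 and 623 CPM in control, 473, 474 and 404 in overexpression and 638 and 623 in knockdown. The overexpression libraries lay below the other 5 (log2 fold change -0.45 ± 0.06, adjusted p = 1.83e-06), the largest fall of a tested factor in that comparison, and the knockdown value was 0.03 ± 0.06 (adjusted p = 0.711). EIF5AL1, a near copy of EIF5A (97.4% identical over 1159 nt), was at 193, 188.5 and 198 CPM in control, 156, 150.1 and 139 in overexpression and 195 and 198 in knockdown. It also fell in overexpression (-0.38 ± 0.05, adjusted p = 3.19e-06), but reads of the pair may have been split or exchanged, so it is not a separate measurement. EIF5A2, a less similar relative (75.4% over 374 nt), was at 19.5, 17.7 and 17.8 CPM in control, 18.01, 20.2 and 22.9 in overexpression and 13.1 and 12.2 in knockdown. Here the knockdown libraries were the low ones (-0.53 ± 0.10, adjusted p = 0.000293), overexpression was at 0.13 ± 0.09 (adjusted p = 0.227), and the direct comparison gave 0.66 ± 0.10 (adjusted p = 1.07e-05), opposite in sign to that of EIF5A (-0.48 ± 0.06, adjusted p = 1.61e-06).

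Among elongation factors, the 2 genes for eEF1A diverged in overexpression. EEF1A2, the form typical of muscle and neurons, was at 117, 127 and 135 CPM in control, 217, 233 and 201 in overexpression and 113.0 and 129 in knockdown libraries. Every overexpression library lay above every other one, a rise of 72.5% (log2 fold change 0.79 ± 0.06, adjusted p = 6.93e-09) and the largest rise among the factors, while knockdown was at -0.06 ± 0.07 (adjusted p = 0.503). EEF1A1, the form used by most cells, was at 1303, 1304 and 1283 CPM in control, 1138, 1171 and 1194 in overexpression and 1347 and 1306 in knockdown. It fell in overexpression (-0.15 ± 0.04, adjusted p = 0.00307) and had 0.03 ± 0.04 in knockdown (adjusted p = 0.584). The transcripts are 78.6% identical over 1389 nt, and EEF1A1 has many processed copies in the genome, so its level is uncertain where reads could not be placed.

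EEF2 was at 3638, 3673 and 3676 CPM in control, 3428, 3718 and 3348 in overexpression and 4260 and 4015 in knockdown. Only the knockdown libraries stood outside the control range on 1 side, with a rise of 0.18 ± 0.05 (adjusted p = 0.00517, and 0.126 without knockdown replicate 2), and overexpression was at -0.07 ± 0.04 (adjusted p = 0.199, and 0.0275 without overexpression replicate 2). EEF1B2, EEF1D and EEF1G encode the eEF1B complex that recharges eEF1A. EEF1D fell in overexpression (-0.20 ± 0.06, adjusted p = 0.00478), while EEF1G was higher in knockdown (0.18 ± 0.05, adjusted p = 0.01), with adjusted p of 0.148 without knockdown replicate 2 and 0.0546 without control replicate 3. EEF1B2 (0.13 ± 0.05, adjusted p = 0.0512) and EEF1D (0.12 ± 0.06, adjusted p = 0.125) also lay above all control libraries in knockdown, without a call. Without overexpression replicate 3 their adjusted p there was 0.013 and 0.0178. In the direct comparison all 3 genes were lower in overexpression, by log2 differences of -0.22 for EEF1B2 (adjusted p = 0.00146), -0.32 for EEF1D (adjusted p = 0.000139) and -0.21 for EEF1G (adjusted p = 0.00142). EEF1G shares 99.9% of its exonic bases with the gene model AP002990.1 on the same strand in GENCODE, a model that need not have been in the authors' annotation.

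**Figure D4:**
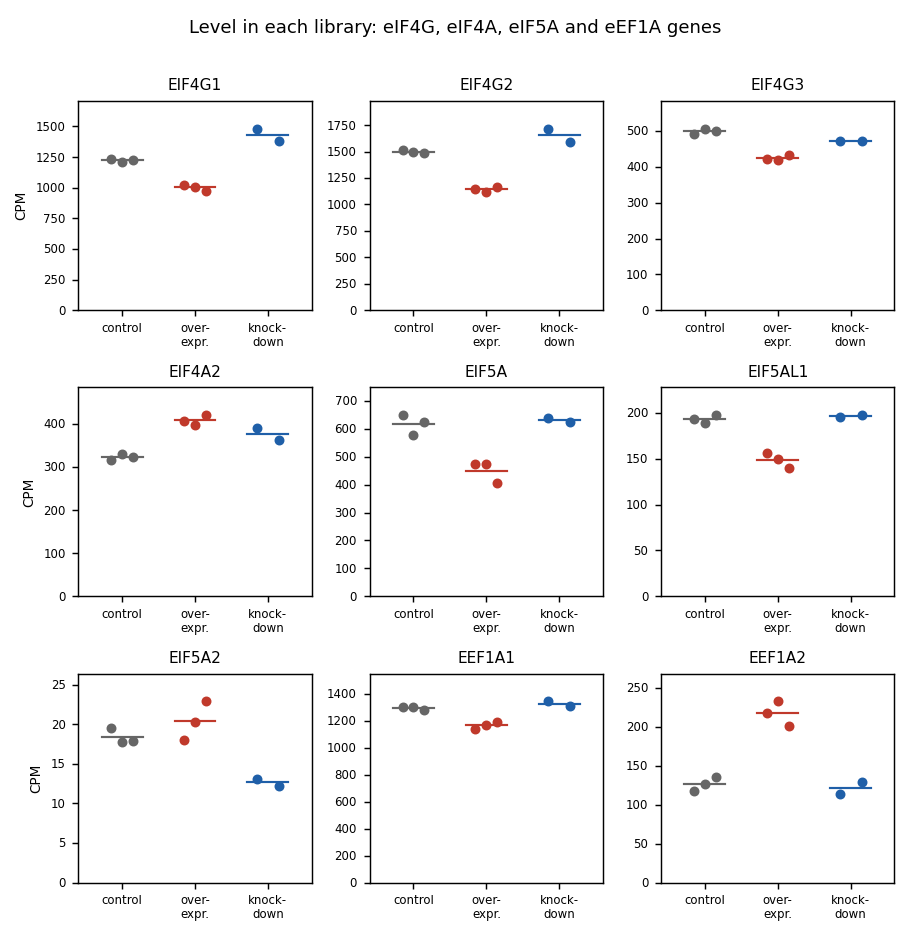
CPM in each library (points) and group mean (lines) for the eIF4G, eIF4A, eIF5A and eEF1A genes; grey is control (n = 3), red overexpression (n = 3), blue knockdown (n = 2), and each axis starts at 0. EIF4G1, EIF4G2, EIF5A and EIF5AL1 are lowest in overexpression, EEF1A2 is highest there, and EIF5A2 is lowest in knockdown.

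Neither termination factor was called against control. ETF1 (eRF1, which reads the stop codon) was at 365, 367 and 358 CPM in control, 337, 317 and 368 in overexpression and 375 and 358 in knockdown, with overlapping groups and log2 differences of -0.10 ± 0.05 (adjusted p = 0.121) and 0.01 ± 0.06 (adjusted p = 0.897). Without overexpression replicate 3, its highest library of that group, the overexpression value of ETF1 was -0.15 with an adjusted p of 0.00165. GSPT1 (eRF3a, its GTPase partner) had -0.06 ± 0.05 in overexpression (adjusted p = 0.274) and 0.11 ± 0.05 in knockdown (adjusted p = 0.0791), and the direct comparison gave -0.17 ± 0.05 (adjusted p = 0.00551, and 0.126 with library totals). Without overexpression replicate 3 its adjusted p was 0.0272 in overexpression and 0.013 in knockdown.

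Factors with and without a pyrimidine start were then set side by side. All 12 factors with the tract printed above were tested. In overexpression 2 of them rose (EIF4A2 and EIF2D) and 3 fell (EEF1A1, EIF2A and EIF4B), with a median log2 fold change of -0.06. Of 31 tested factors with another RefSeq start, 3 rose and 18 fell (9.68% and 58.1%), with a median of -0.15. The 18 include both EIF5A and EIF5AL1, which are not separate measurements. In knockdown the 12 had 4 rises (EEF2, EIF3D, EIF3K and EIF4A2), no fall and a median of 0.06, and the 31 had 7 rises and 6 falls with a median of 0.03. Over all 752 tested genes with the tract, 163 rose and 193 fell in overexpression and 160 rose and 150 fell in knockdown, with medians of 0.00 in each. Of all 9647 tested genes with another start, 24.9% rose and 26.4% fell in overexpression, and 21.1% rose and 19.7% fell in knockdown. Of the 12, leaving out 1 library ended the calls of EIF2A, EIF2D and EIF4B in overexpression and of EEF2, EIF3D, EIF3K and EIF4A2 in knockdown. Among the 31 it ended those of EIF1AD, EIF2B1, EIF2B5, EIF3J, EIF4E2 and EIF5 in overexpression. In knockdown it ended those of EEF1G, EIF2B3, EIF3J, EIF4E, EIF4E3, EIF4G2 and EIF5B. The adjusted p is given above for each. No test of the difference between these groups was made.

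Regulators and partners of the factors were listed separately: 56 genes of eIF2 kinase and phosphatase signalling, mTOR signalling, poly(A)-binding proteins, factor modification, ribosome rescue and mitochondrial translation, all of which were tested. In overexpression 13 rose and 24 fell (66.1% called, background 49.2%), with a median log2 fold change of -0.08. In knockdown 19 rose and 7 fell (46.4%, background 39%), with a median of 0.08. With library totals the counts were 15 and 19 in overexpression (background 49.3% called) and 15 and 9 in knockdown (background 39.1%). Without knockdown replicate 2 fewer of the 56 were called in knockdown, as of all tested genes.

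The 2 largest rises of the list, in both treatments, were in eIF2 signalling. EIF2AK3 (PERK, the eIF2 alpha kinase of the endoplasmic reticulum) rose by 0.68 ± 0.06 in overexpression (adjusted p = 4.06e-08) and 0.60 ± 0.07 in knockdown (adjusted p = 7.99e-07). PPP1R15A (GADD34, which directs the phosphatase that reverses this phosphorylation) rose by 0.58 ± 0.05 (adjusted p = 5.96e-08) and 0.73 ± 0.06 (adjusted p = 1.27e-08). The amino acid-sensing kinase EIF2AK4 (GCN2) was lower in both treatments. Its log2 fold change was -0.21 ± 0.05 in overexpression (adjusted p = 0.0013) and -0.22 ± 0.05 in knockdown (adjusted p = 0.0032). Without knockdown replicate 3 the knockdown value of EIF2AK4 was -0.19 and its call was lost. The kinases EIF2AK1 (-0.17 ± 0.04, adjusted p = 0.00264) and EIF2AK2 (-0.18 ± 0.06, adjusted p = 0.0238) were also lower in overexpression. In knockdown EIF2AK1 was not called (-0.09 ± 0.05, adjusted p = 0.138) and EIF2AK2 was lower (-0.19 ± 0.07, adjusted p = 0.0328). Both comparisons share the control libraries, so their values are not independent of each other.

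Of the mTOR branch, LARP1, which binds pyrimidine-tract messages, fell in overexpression by 0.37 ± 0.05 (adjusted p = 1.94e-06), as did the mTORC1 components AKT1S1 (log2 fold change -0.47 ± 0.07, adjusted p = 7.74e-06) and MLST8 (-0.36 ± 0.05, adjusted p = 1.16e-05). MTOR itself rose in knockdown by 0.44 ± 0.05 (adjusted p = 2.25e-06) and was lower in overexpression (log2 fold change -0.21 ± 0.05, adjusted p = 0.0012). RPTOR was lower in overexpression as well (-0.20 ± 0.06, adjusted p = 0.0048). Not all of the branch fell there: RPS6KB1 (0.32 ± 0.05, adjusted p = 5.00e-05) and RPS6KB2 (0.18 ± 0.07, adjusted p = 0.036) rose. The overexpression libraries of RPS6KB2 overlapped the control ones, and its rise in knockdown was larger (0.40 ± 0.07, adjusted p = 0.000222). RPS6KB1 was not called in knockdown (-0.02 ± 0.06, adjusted p = 0.862). Of the elongation branch, EEF2K, the kinase that inactivates eEF2, rose in overexpression by 0.36 ± 0.06 (adjusted p = 3.27e-05), while DPH2, needed for the diphthamide modification of eEF2, fell by 0.51 ± 0.06 (adjusted p = 9.59e-07). GFM2, a mitochondrial ribosome recycling factor, rose by 0.35 ± 0.05 in overexpression (adjusted p = 2.11e-05) and 0.37 ± 0.06 in knockdown (adjusted p = 4.80e-05). PDCD4, an inhibitor of eIF4A, fell in knockdown (log2 fold change -0.28 ± 0.06, adjusted p = 0.00134). PAIP2B, an inhibitor of poly(A)-binding protein, fell in knockdown (-0.35 ± 0.08, adjusted p = 0.00146). Without knockdown replicate 2 its value was -0.27 and the call was lost. In overexpression PAIP2B rose (0.31 ± 0.07, adjusted p = 0.0011). SECISBP2, needed for selenoprotein synthesis, fell in knockdown (-0.19 ± 0.05, adjusted p = 0.00735). Without knockdown replicate 2 its value was -0.18 and the call was lost. It fell in overexpression too (-0.32 ± 0.05, adjusted p = 1.58e-05).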

How the data were processed

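The deposited table holds whole-number read counts per gene symbol for 8 libraries of HEK293F total RNA, one column each, with no normalization by the authors. The submitters' processing notes name build hg19 and, with no role or order, the tools HTSeq 0.5.3p9, TopHat2 2.0.8, SAMtools 0.1.18, CASAVA 1.8.2, Trimmomatic 0.22 and edgeR. Which strand setting was used and how ambiguous reads were handled is not stated there.

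All 8 libraries were fitted together with 1 mean per group in edgeR 4.0.16 (R 4.3.3), with TMM scaling, the default count filter of filterByExpr (minimum count 10, minimum total 15) and the two-sided quasi-likelihood test. The p-values were adjusted by Benjamini-Hochberg over all 15254 tested genes, and a gene was called under 0.05. The common biological coefficient of variation was 4.49%. Library totals of 12737889 to 32826936 reads set the precision. No replicate pair agreed within sampling noise (chi-square per gene 1.85 to 7.81).

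Levels are CPM with TMM-scaled library sizes. Lengths (longest transcript of any type), exon overlaps and identities (local alignment of the longest protein-coding transcripts, or of the longest transcript where a gene has no coding one) came from GENCODE 29, and start windows from RefSeq (GRCh38.p14). Neither is the build of the counts, so no position of a read was used.

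The factor genes and the list of 56 pathway genes were chosen with earlier results of these data known. Values in every library are given for the 5 largest changes in each direction and comparison with control among called factors (mean log2 CPM 3 or more), and for the most abundant factor per length of each complex. Of the pathway list, up to 4 genes in each direction and comparison with the smallest adjusted p are named. Further eIF2 kinases and mTOR genes are given beside them. Other factors are given with their log2 fold changes by complex. Alternatives were other size factors, plain library totals, no filter, at least 50 reads in every library, DESeq2 1.42.0, a fit of only the groups compared, the replicate number as a block, and leaving out each library.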

Additional observations from a re-analysis of the deposited data

How the results depend on the processing

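Of the calls against control, 22 of 33 factors in overexpression and 7 of 19 in knockdown passed under all 15 alternatives, as did 22 of 38 between overexpression and knockdown. Both sets of 22 include EIF5A and its near copy EIF5AL1. The 7 in knockdown were EIF1B, EIF2B2, EIF2S1, EIF3A, EIF3B, EIF4G1 and EIF5A2. Scaling by library totals gave 16 lower and 11 higher factors in overexpression against control, 17 lower and 14 higher against knockdown, and 9 lower and 8 higher in knockdown against control. For all genes it gave 4520 higher and 2997 lower in overexpression, 2353 and 3611 in knockdown, and 5709 and 3001 between both. The cause of these shifts was not tested.

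Leaving out 1 library at a time gave 22 to 39 called factors in overexpression (7 to 10 higher, 15 to 29 lower), 7 to 24 in knockdown (3 to 17 higher, 4 to 7 lower) and 25 to 41 between both (8 to 13 higher, 17 to 30 lower). The pathway list gave 31 to 38 calls in overexpression (11 to 14 higher, 19 to 25 lower) and 15 to 31 in knockdown (13 to 23 higher, 2 to 8 lower). All genes gave 3043 to 7233 calls in knockdown (1577 to 3749 higher, 1466 to 3484 lower), 6106 to 7848 in overexpression and 6076 to 9148 between both. The low ends in knockdown came without knockdown replicate 2, where 1 knockdown library was left.

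Pairing by replicate number was not apparent: the correlation of same-numbered deviations from the group means ran from -0.0847 to 0.09. For differently numbered libraries it ran from -0.09 to 0.0988. Deviations within a group of 2 or 3 libraries are tied to each other, so this check could not exclude pairing. With the replicate number as a block, 30 factors were called in overexpression (8 higher, 22 lower), 16 in knockdown (10 higher, 6 lower) and 36 between both (10 higher, 26 lower). The same fit called 7117 (46.7%), 5169 (33.9%) and 8076 (52.9%) of all tested genes.

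Among the log2 fold changes of single genes, 2438 values under an alternative kept direction and call, 140 lost the call, 51 gained one and 41 changed sign. All 41 sign changes were to values that were not called. With library totals they were, in overexpression, EEF1G 0.0030, EIF2S1 0.0098 and EIF3L 0.0231; in knockdown, EEF1A1 -0.0130, EIF2B1 -0.0148, EIF2B5 -0.0146, EIF3E -0.0011, EIF4B -0.0387, EIF5 -0.0231, EIF5A -0.0129, EIF5AL1 -0.0204 and ETF1 -0.0348; and between both, EIF3L 0.0077, EIF3M 0.0617 and EIF4ENIF1 0.0394. With at least 50 reads in every library, EIF4B was at -0.0059 and ETF1 at -0.0019 in knockdown, and EIF3M at 0.0022 between both. With the replicate block, EIF2S2 was at 0.0088 and EIF4E2 at 0.0032 in knockdown.

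Leaving out 1 library at a time changed the sign of the following, given with their lowest and highest values. In knockdown they were EEF1A2 (-0.154 to 0.0268), EIF2B5 (-0.011 to 0.0694), EIF2S2 (-0.0473 to 0.0125), EIF4B (-0.0197 to 0.0226), EIF4E2 (-0.0678 to 0.0356), EIF5 (-0.0384 to 0.0809), EIF5A (-0.0135 to 0.074), EIF6 (-0.0145 to 0.1199) and ETF1 (-0.0267 to 0.0471). In overexpression they were EIF2S1 (-0.0995 to 0.0251), EIF3K (-0.0157 to 0.0464) and EIF3L (-0.0366 to 0.0152). Between both treatments they were EIF1B (-0.0041 to 0.0904), EIF3A (-0.0191 to 0.0762) and EIF3E (-0.0288 to 0.0607).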
